A study of Mus musculus with 20 samples.

Results

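The miR-181 family was followed through 20 small-RNA libraries of mouse bone-marrow macrophages and dendritic cells. Its 7 members were the arms miR-181a-5p, miR-181b-5p, miR-181c-5p, miR-181d-5p, miR-181a-1-3p, miR-181b-1-3p and miR-181c-3p, chosen by name from the annotated hairpins and read from tags of 18 to 26 nt that match those arms exactly. They are 7 of 1222 miRNAs with reads, and all 7 were among the 373 that passed a filter of 5 CPM in at least 2 libraries, where CPM is a count per M (mega) reads that match any miRNA hairpin in the same library. miR-181b-1-3p reached 5 CPM in 3 libraries and miR-181c-3p in 11, of which 10 were macrophages.

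Macrophages were grown from bone marrow with M-CSF and dendritic cells with GM-CSF, from mice 8 to 12 weeks old; the series' design text calls the cells monocyte-derived. The miR-155 knockout mice carried the B6.Cg-Mir155tm1.1Rsky/J allele and the wild-type mice were C57BL/6. For each cell type and genotype there were 5 libraries, given LPS (a bacterial cell wall component), oxLDL, eLDL or LDL (3 lipoprotein preparations, named here as the labels name them), or left unstimulated, with 1 library per condition. Dendritic cells received 200 ng/ml LPS overnight at day 8 to 9. For LPS on macrophages, and for the lipoproteins on either cell type, the sources used here give neither dose nor time. The labels do not say whether libraries came from separate mice or cultures, so p-values measure only the spread between these libraries. Below, a culture means the 5 libraries of 1 cell type and genotype, whether or not their cells were grown together.

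The 4 guide arms, the 5p arms that are normally loaded into Argonaute, share 1 seed and so are thought to address largely overlapping target messages. They arise from 3 paired clusters, and in the immune system miR-181a is known best from developing T cells, where it tunes the sensitivity of antigen receptor signalling. The opposite arm of a hairpin, the passenger, is usually degraded soon after processing. A passenger arm can still tell from which of 2 hairpins with the same guide its own reads came. It does not measure the transcription of either hairpin. Guide reads cannot be divided in this way, since miR-181a-5p and miR-181b-5p each come from 2 loci.

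The mature sequences show which members share a seed (bases 2 to 8, in capitals, from the 5′ end), as given by RefSeq for GRCm38.p6:
miR-181a-5p: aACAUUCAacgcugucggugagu
miR-181b-5p: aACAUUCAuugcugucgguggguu
miR-181c-5p: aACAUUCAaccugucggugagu
miR-181d-5p: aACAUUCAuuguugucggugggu
miR-181a-1-3p: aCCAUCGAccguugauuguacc
miR-181c-3p: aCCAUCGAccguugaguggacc
miR-181b-1-3p: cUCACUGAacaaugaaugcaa
The 4 guides carry the seed ACAUUCA, miR-181a-1-3p and miR-181c-3p share CCAUCGA, and miR-181b-1-3p has UCACUGA. Counting from 1 at the 5′ end of miR-181b-5p, the only substitution towards miR-181d-5p over their 23 shared positions was C12U. The mature miR-181c-5p sequence is that of miR-181a-5p with 1 inner base missing.

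The clusters lie apart in the genome (GRCm38). Mir181a-1 at chr1:137966455-137966541 and Mir181b-1 at chr1:137966639-137966718 are on the plus strand with 97 bases between them, inside an intron of the noncoding gene Gm4258. The lincRNA A430106G13Rik overlaps them on the same strand, with an exon covering 11 bases of Mir181a-1 and all 80 bases of Mir181b-1. Mir181a-2 at chr2:38852735-38852810 and Mir181b-2 at chr2:38853830-38853918 are on the plus strand, 1019 bases apart and opposite introns of Nr6a1. Mir181d at chr8:84178716-84178787 and Mir181c at chr8:84178873-84178961 are on the minus strand, 85 bases apart, in an intron of Nanos3 on the same strand. The hairpins below show the guide and passenger arms in capitals for the 2 loci whose passenger arms are contrasted with their guides:
Mir181a-1: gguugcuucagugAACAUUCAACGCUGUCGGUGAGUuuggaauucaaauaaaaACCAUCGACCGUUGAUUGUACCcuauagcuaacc
Mir181b-1: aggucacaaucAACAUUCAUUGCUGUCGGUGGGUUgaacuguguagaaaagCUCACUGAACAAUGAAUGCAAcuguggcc

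Library depth ran between 10.3 and 22.8 M reads, of which 5.13 to 11.8 M matched a miRNA hairpin, so that 3 reads were worth 0.254 to 0.584 CPM. miR-155-5p, the product of the deleted gene, was at 3.92 to 5.87 CPM in knockout macrophages, against 5324 to 39696 CPM in wild-type macrophages. In knockout dendritic cells it was at 0.307 to 0.782 CPM, against 128 to 9521 CPM in wild-type dendritic cells. The 4 myeloid marker arms (miR-223 and miR-142a) summed to between 21598 and 32364 CPM in macrophages and between 17035 and 26090 CPM in dendritic cells. Markers of other cells were lower: the epithelial list (miR-200 family and miR-205) reached 239 CPM in macrophages and 229 CPM in dendritic cells. The megakaryocyte and endothelial arms of miR-126a stayed at or below 16.8 and 18.2 CPM, and miR-122-5p, the liver marker, at or below 4.57 and 1.69 CPM. In bulk libraries fewer cells of a type and less RNA per cell cannot be told apart.

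The family was more abundant in macrophages than in dendritic cells. The 7 members together took 6.86 to 10.7% of hairpin reads in macrophages and 1.63 to 2.84% in dendritic cells. miR-181a-5p made up 80.6 to 89.3% of the family in macrophages and 87.6 to 92.1% in dendritic cells, and ranked 3 or 4 among all miRNAs of each macrophage library and between 11 and 15 in each dendritic cell library. The arms of the miR-181c and miR-181d cluster were 0.481 to 2.38% of the family in macrophages and 0.185 to 0.307% in dendritic cells.

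miR-181a-5p had 90692, 89499, 91360, 94250 and 73649 CPM in knockout macrophages given LPS, oxLDL, eLDL, LDL and nothing. In wild-type macrophages the same states gave 64342, 67189, 81137, 73621 and 55302 CPM. In knockout dendritic cells they gave 21609, 23090, 25261, 22827 and 24667 CPM, and in wild-type dendritic cells 17484, 14241, 19699, 19300 and 20312 CPM. The 10 macrophage libraries all lay above the 10 dendritic cell libraries, without overlap. How many of all miRNAs separated in this way is not given here, and the comparison called 78.8% of those tested. The difference was 1.91 ± 0.06 on the log2 scale (edgeR quasi-likelihood test, estimate ± SE, adjusted p = 4.24e-14), or 3.77-fold.

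**Figure D1:**
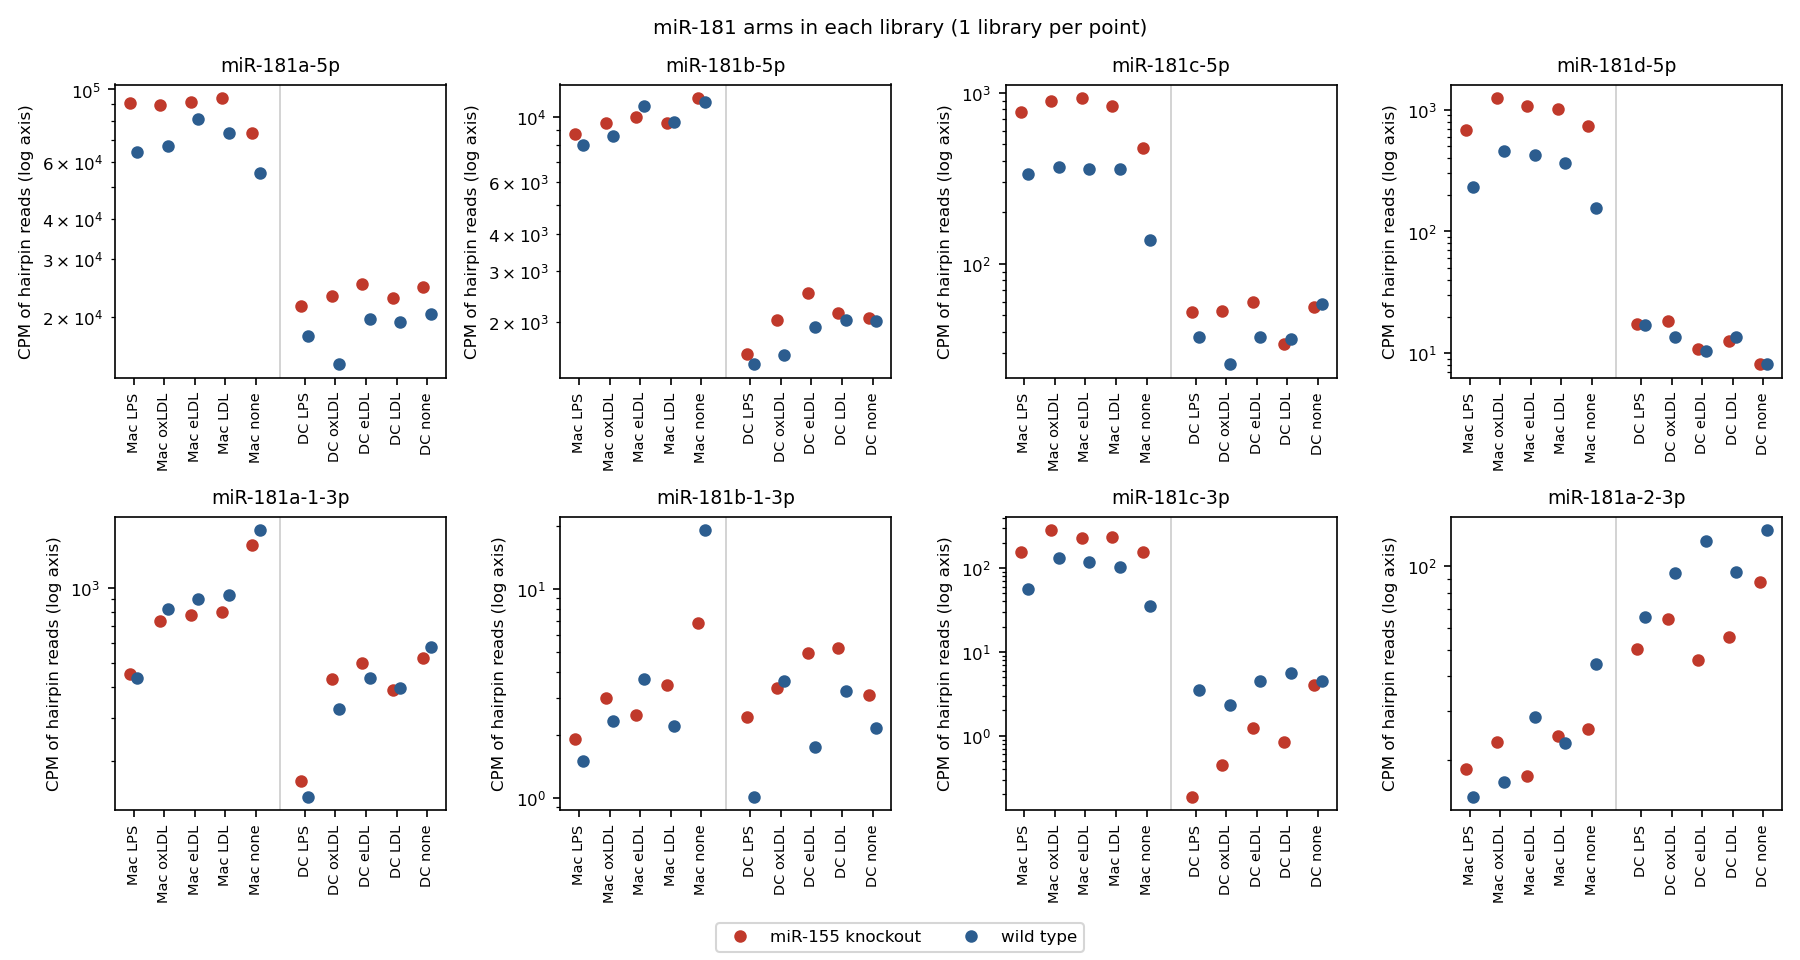
CPM of hairpin reads (log axis) of each miR-181 arm in each library, by cell type (Mac, macrophages; DC, dendritic cells) and stimulus, with 1 point per library, red for miR-155 knockout and blue for wild type. The points of miR-181d-5p lie between 157 and 1253 CPM in macrophages and between 8.08 and 18.4 CPM in dendritic cells, and those of miR-181a-1-3p are lowest with LPS in every culture.

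miR-181b-5p, the second guide of both a/b clusters, followed with 7995 to 11613 CPM (median 9557) in macrophages and 1437 to 2512 CPM (median 2029) in dendritic cells, a log2 difference of 2.36 ± 0.06. The distance between the cell types was wider for the c/d cluster. miR-181c-5p was 10.9-fold higher in macrophages, at 138 to 936 CPM against 25.7 to 59.3 CPM (3.45 ± 0.11 on the log2 scale), and miR-181d-5p 42.8-fold higher, at 157 to 1253 CPM against 8.08 to 18.4 CPM (5.42 ± 0.10). miR-181c-3p reached 34.9 to 284 CPM in macrophages, against 0.187 to 5.66 CPM, or 2 to 40 reads, in dendritic cells (5.94 ± 0.25). It passed the filter through its 10 macrophage libraries, so this difference is given as a description. In each library the c/d arms can be set against the a/b arms, and this ratio was higher in macrophages in 10 of 10 matched pairs of the same genotype and stimulus (mean log2 difference 2.29, two-sided exact permutation p = 0.00195, adjusted p = 0.00781 over 20 ratio tests).

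Of the passenger arms, miR-181a-1-3p was higher in macrophages by 1.23 ± 0.07 on the log2 scale. miR-181b-1-3p had 1.5 to 19.1 CPM in macrophages and 1.01 to 5.19 CPM in dendritic cells, a difference of 0.29 ± 0.28 that did not pass the test (adjusted p = 0.363). Leaving miR-181c-3p aside, 5 of 6 members were higher in macrophages and none lower. The comparison called 78.8% of all 373 miRNAs, 146 of them higher and 148 lower. The passenger of the chromosome 2 locus, miR-181a-2-3p, which is not among the 7, went the other way: it had 14.7 to 44.2 CPM in macrophages and 45.7 to 135 CPM in dendritic cells, lower in macrophages by 1.74 on the log2 scale (−1.74 ± 0.13, adjusted p = 3.63e-09). Its reads were 1.71 to 3.96% of the sum of both miR-181a passengers in macrophages and 8.40 to 31.4% in dendritic cells, with no overlap. miR-181b-2-3p had 2 reads in 1 library and miR-181d-3p had 7 reads in 1 library. The lymphoid markers (2 arms of miR-150) were also higher in macrophages, summing to 63.6 to 167 CPM against 6.15 to 24.0 CPM in dendritic cells. The erythroid markers (miR-451a, miR-144, miR-486a) were lower in macrophages, at 413 to 721 CPM against 1226 to 1975 CPM in dendritic cells. The part of either in the miR-181 difference was not tested.

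LPS lowered the miR-181a-1 passenger in all 4 cultures, while its guide did not pass the test. miR-181a-1-3p had 450 CPM with LPS and 1486 CPM unstimulated in knockout macrophages, and 435 against 1709 CPM in wild-type macrophages. In knockout dendritic cells it had 167 CPM with LPS and 522 CPM unstimulated, and in wild-type dendritic cells 144 against 579 CPM. In every culture the LPS library was the lowest of 5 and the unstimulated library the highest. The change was −1.87 ± 0.15 on the log2 scale in macrophages (edgeR, adjusted p = 7.40e-07), where 20.1% of all miRNAs were called, and −1.41 ± 0.15 in dendritic cells (adjusted p = 1.06e-05), where 23.6% were called. It held without each single library, with adjusted p of at most 7.91e-05 in macrophages and 5.69e-04 in dendritic cells. miR-181a-5p differed from unstimulated cells by 0.24 ± 0.13 in macrophages (adjusted p = 0.237). In dendritic cells its sign depended on the scaling: it was 0.23 ± 0.13 under TMM scaling (adjusted p = 0.249) and −0.20 under scaling to total miRNA reads (adjusted p = 0.222), where the CPM with LPS were 0.876 and 0.861 of the unstimulated ones in knockout and wild type, and DESeq2 called it at 0.31 (adjusted p = 0.0277).

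Taken as a share of passenger plus guide reads within each library, which does not depend on scaling between libraries, miR-181a-1-3p was 0.493 to 0.814% in the 4 LPS libraries, 0.818 to 2.23% in the 12 lipoprotein libraries and 1.98 to 3.0% in the 4 unstimulated libraries. In knockout macrophages given LPS the share was 0.493% (exact 95% binomial interval 0.477 to 0.510%), and in unstimulated ones 1.98% (1.95 to 2.01%); these intervals cover counting error only. The log2 ratio of passenger to guide was lower with LPS than in the other 4 states by 1.26 on average (−1.26), in 4 of 4 cultures (two-sided exact permutation p = 0.0016, the smallest possible, adjusted p = 0.00781). Lipoproteins also lay below the unstimulated state, by −0.81 on average in 4 of 4 cultures (exact permutation p = 0.00391, the smallest possible, adjusted p = 0.00977).

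**Figure D2:**
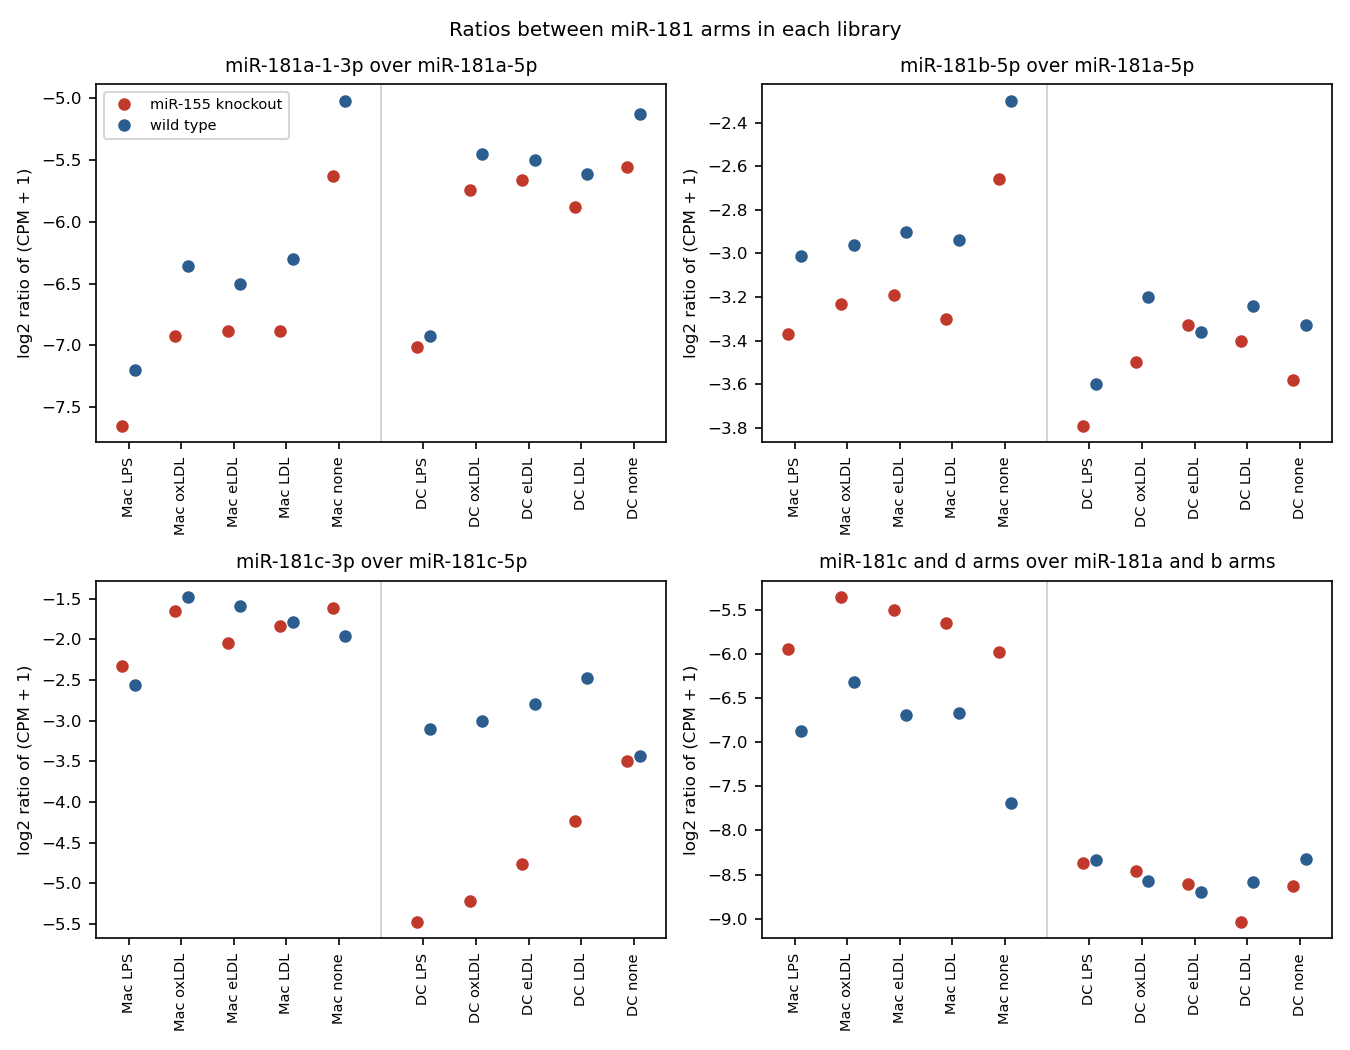
Log2 ratio of (CPM + 1) between miR-181 arms in each library, by cell type and stimulus, red for miR-155 knockout and blue for wild type, 1 point per library. The miR-181a-1-3p to miR-181a-5p ratio falls between −7.65 and −6.92 with LPS and between −5.63 and −5.02 unstimulated, and the c/d to a/b ratio is higher in each knockout macrophage library than in its wild-type partner.

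The other passengers were shallower. miR-181a-2-3p, not a member, had 18.5 CPM with LPS and 25.9 CPM unstimulated in knockout macrophages, and 14.7 against 44.2 CPM in wild type. In dendritic cells it had 50.2 against 87.9 CPM in the knockout and 65.6 against 135 CPM in wild type. It was thus lower with LPS than unstimulated in both genotypes of both cell types. With eLDL it was lower still in the knockout, at 17.5 CPM in macrophages and 45.7 CPM in dendritic cells. Fitted without unstimulated wild-type macrophages, its change in dendritic cells was −0.49 ± 0.25 (edgeR, adjusted p = 0.172). In macrophages the change of miR-181a-2-3p in that fit was −0.59, where only the knockout unstimulated library remained. miR-181b-1-3p had 1.91 CPM (15 reads) with LPS and 6.88 CPM (65 reads) unstimulated in knockout macrophages. In wild-type macrophages it had 1.5 CPM (12 reads) against 19.1 CPM (138 reads). The wild-type unstimulated library was the highest of all 20. In macrophages this arm reached 5 CPM only in the 2 unstimulated libraries, so it passed the filter mainly through the state where it was high. Its exact-match difference with LPS in macrophages, −2.90 ± 0.64 on the log2 scale by edgeR, is therefore a description; it was −1.88 without unstimulated and −2.57 without LPS-treated wild-type macrophages. In dendritic cells it was −0.23 ± 0.65 (adjusted p = 0.875). Most reads of this arm carried extra 3′ bases and were not exact matches: the most frequent such tag, shown here with its added base in the last position, had 1313 reads, against 597 for all exact matches together.
tailed miR-181b-1-3p tag: ctcactgaacaatgaatgcat
Counted with up to 2 such bases, miR-181b-1-3p had 78 reads with LPS and 378 unstimulated in knockout macrophages, and 48 against 544 in wild-type macrophages. Counted this way it was above 5 CPM in every library except knockout dendritic cells given LPS (4.58 CPM), and the fall with LPS in macrophages was −2.97 ± 0.39 (edgeR, adjusted p = 1.59e-04). Without unstimulated wild-type macrophages as well, a combination chosen after the data had been seen, it was −2.27 ± 0.40 (adjusted p = 0.00228). In dendritic cells, with tails, the arm had 4.58 CPM with LPS against 15.8 CPM unstimulated in the knockout, and 5.19 against 10.5 CPM in wild type. That change was not called (−1.0 ± 0.38, edgeR, adjusted p = 0.0825). Relative to the mean of the lipoproteins it was −1.27 ± 0.33 (adjusted p = 0.0115).

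For miR-181c-3p against miR-181c-5p, the log2 ratio was lower with LPS by −0.65 on average in 4 of 4 cultures (exact permutation p = 0.0128, adjusted p = 0.0256). This call was lost without knockout dendritic cells given LDL (−0.64, adjusted p = 0.0582), without knockout macrophages given LPS (−0.69, adjusted p = 0.0901) or without wild-type macrophages given LPS (−0.59, adjusted p = 0.123). For miR-181b-1-3p against miR-181b-5p it was −0.47 for exact matches (exact permutation, adjusted p = 0.175) and −1.05 with tails (adjusted p = 0.0116). Set against other lesser arms common in myeloid cells, 38 of 40 of which were tested, LPS raised 1 and lowered 8 in macrophages (median log2 change −0.34, against 0.08 over all miRNAs). In dendritic cells it raised 4 and lowered 9 (median −0.06, against −0.05 over all). Of all miRNAs, 20.1% were called in macrophages and 23.6% in dendritic cells. miR-155-3p rose by 2.72 ± 0.37 in macrophages and 5.61 ± 0.47 in dendritic cells, and miR-16-1-3p fell by 1.95 in macrophages (−1.95 ± 0.20).

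Among the guides, LPS raised miR-181d-5p in dendritic cells and miR-181c-5p in macrophages, and lowered miR-181b-5p in macrophages. The c/d to a/b ratio did not move one way with LPS (mean log2 difference 0.04, higher in 2 of 4 cultures, exact permutation, adjusted p = 0.826). miR-181d-5p had 17.5 CPM with LPS and 8.08 CPM unstimulated in knockout dendritic cells, and 16.9 against 8.19 CPM in wild-type dendritic cells, a change of 1.51 ± 0.20 (edgeR, adjusted p = 1.02e-04), on counts of 54 to 187 reads a library that stand near the background of miscalled miR-181b-5p in some libraries, as given further on. In macrophages it had 684 against 737 CPM in the knockout and 234 against 157 CPM in wild type, lower with LPS in the knockout and higher in wild type (0.19 ± 0.17, adjusted p = 0.5). The LPS effect on miR-181d-5p was smaller in macrophages than in dendritic cells by 1.33 on the log2 scale (−1.33 ± 0.27, adjusted p = 0.00394; 13.4% of all miRNAs were called). Without LPS-treated wild-type dendritic cells this difference was −1.15 (adjusted p = 0.0617). miR-181c-5p rose in macrophages by 0.95 ± 0.22 (adjusted p = 0.00527), with 776 against 478 CPM in the knockout and 333 against 138 CPM in wild type, and changed by 0.04 ± 0.23 in dendritic cells (adjusted p = 0.956). The rise of miR-181c-5p in macrophages was 0.76 without unstimulated (adjusted p = 0.0996) and 0.84 without LPS-treated (adjusted p = 0.0529) wild-type macrophages. miR-181b-5p fell in macrophages by 0.47 (−0.47 ± 0.14, adjusted p = 0.0243), a call lost in 9 of 20 fits that left out 1 library, with adjusted p up to 0.146. Leaving miR-181b-1-3p aside, 3 of 6 members were called with LPS in macrophages, where 20.1% of all miRNAs were, and 2 of 7 in dendritic cells, near the 23.6% over all miRNAs.

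The 3 lipoproteins were compared with the unstimulated state as a mean, since each has 1 library per culture. In macrophages, where 13.1% of all miRNAs were called, miR-181a-1-3p fell by 1.08 (−1.08 ± 0.11, adjusted p = 2.42e-05). The oxLDL, eLDL and LDL libraries had 738, 774 and 802 CPM against 1486 CPM unstimulated in the knockout, and 819, 898 and 935 against 1709 CPM in wild type, so no stimulated library reached its unstimulated partner. miR-181c-5p rose by 1.0 ± 0.19 (adjusted p = 0.00232) and miR-181d-5p by 0.84 ± 0.15 (adjusted p = 0.00143), while miR-181b-5p fell by 0.37 (−0.37 ± 0.11, adjusted p = 0.0322). Without unstimulated wild-type macrophages, miR-181a-1-3p alone of these 4 still passed, at −1.0 (adjusted p = 0.00217). miR-181c-5p was then at 0.80 (adjusted p = 0.0967) and miR-181d-5p at 0.52 (adjusted p = 0.0848). The exact-match miR-181b-1-3p difference, −2.29 ± 0.45, again rests on the 2 unstimulated libraries through which it passed the filter; with tails it fell by 1.93 (−1.93 ± 0.27, adjusted p = 3.08e-04), and by 1.33 without unstimulated wild-type macrophages as well (−1.33 ± 0.35, adjusted p = 0.0442). The call of miR-181b-5p was lost in 9 of 20 such fits, with adjusted p up to 0.254.

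In dendritic cells no member passed with lipoproteins, in a comparison that called 0.268% of all miRNAs. There edgeR called 1 miRNA and had 46 at an unadjusted p under 0.05, 4 of them members. The nearest member was miR-181d-5p at 0.79 ± 0.18 (adjusted p = 0.0519), which DESeq2 called at 0.84 (adjusted p = 0.00842). miR-181a-1-3p had 431, 498 and 387 CPM against 522 CPM unstimulated in knockout and 325, 433 and 395 against 579 CPM in wild-type dendritic cells, each below its partner (−0.34 ± 0.12, adjusted p = 0.247). The lipoprotein effect itself differed between the cell types for 3 members (6.17% of all miRNAs were called). In macrophages minus dendritic cells it was −0.75 ± 0.17 for miR-181a-1-3p (adjusted p = 0.0164), −2.87 ± 0.72 for miR-181b-1-3p (adjusted p = 0.0263, with the same limit of the filter) and 1.43 ± 0.26 for miR-181c-5p (adjusted p = 0.00365). Without unstimulated wild-type macrophages, miR-181c-5p alone of the 3 passed, at 1.24 (adjusted p = 0.0432), and without unstimulated wild-type dendritic cells it was 1.06 (adjusted p = 0.0542). The miR-181a-1-3p call was also lost without unstimulated knockout dendritic cells (−0.53, adjusted p = 0.137), and that of miR-181b-1-3p in 6 of 20 fits without 1 library (adjusted p up to 0.282).

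LPS went further than the lipoproteins for the miR-181a-1 passenger. Relative to their mean it fell by 0.78 in macrophages (−0.78 ± 0.13, adjusted p = 6.28e-04; 13.9% of all called) and by 1.07 in dendritic cells (−1.07 ± 0.13, adjusted p = 1.85e-05; 24.4% called). miR-181d-5p was lower with LPS than with lipoproteins in macrophages (−0.65 ± 0.15, adjusted p = 0.00574) and higher in dendritic cells (0.72 ± 0.15, adjusted p = 0.00224). Both miR-181d-5p calls were lost without the LPS library of either genotype, at adjusted p of 0.0543 and 0.0714 in macrophages and 0.114 and 0.0562 in dendritic cells, and the call in dendritic cells was also lost when they were fitted alone or scaled to total miRNA reads.

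**Figure D3:**
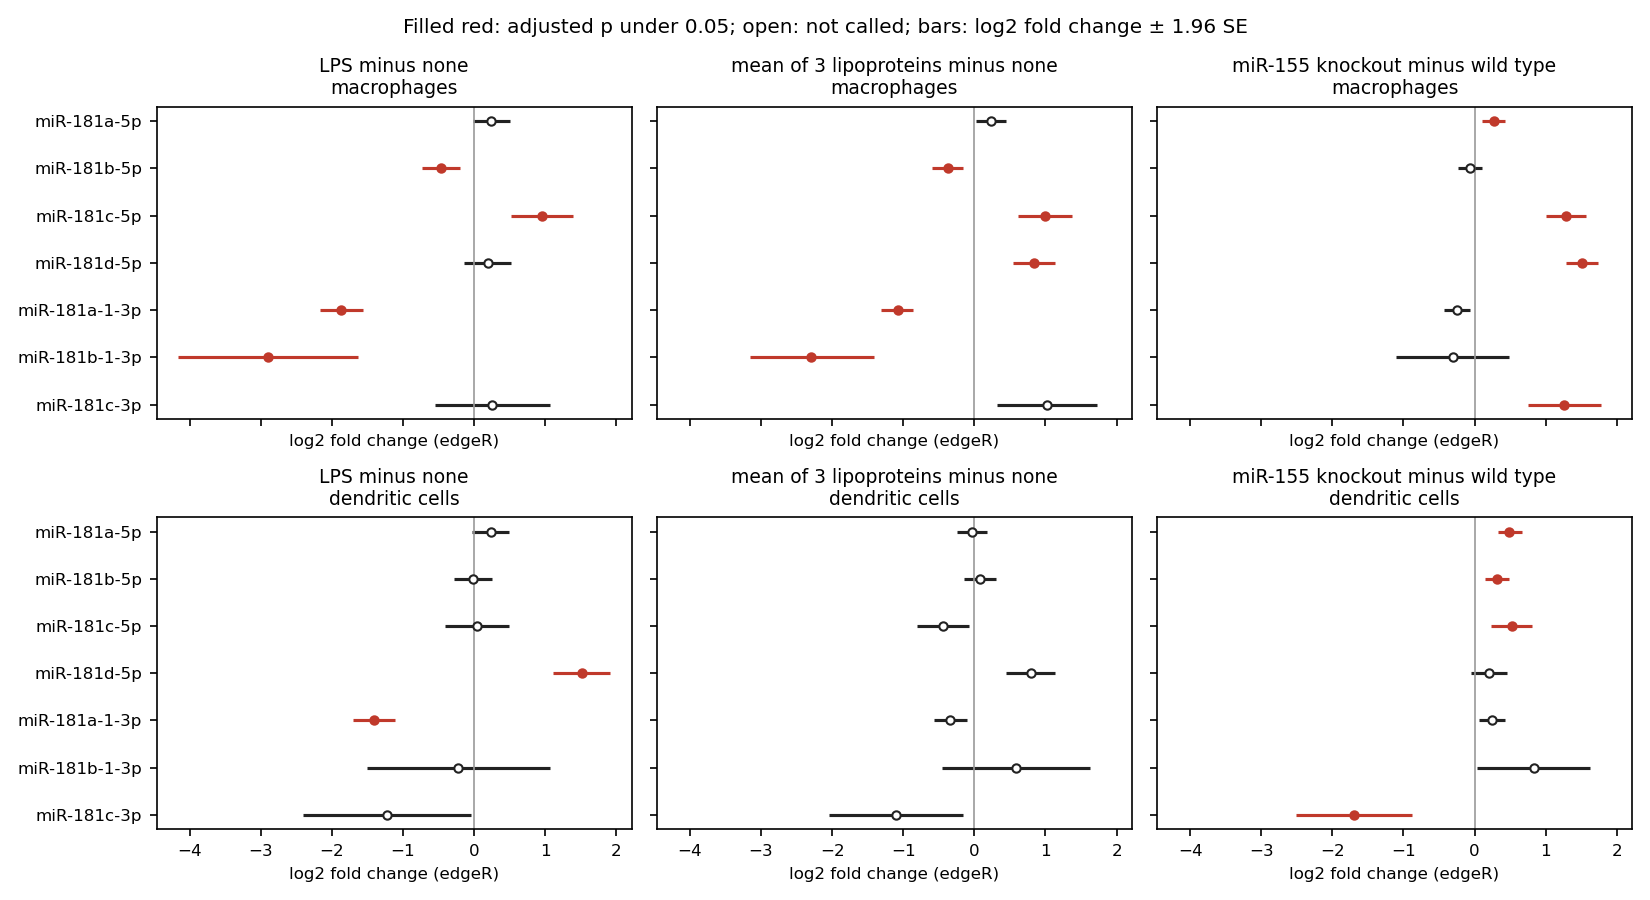
Log2 fold change of each member by edgeR (x axis) with bars for the normal-approximation 95% interval, for LPS and the mean of 3 lipoproteins against the unstimulated state and for miR-155 knockout against wild type, macrophages in the upper row and dendritic cells in the lower. Filled red points passed an adjusted p of 0.05; miR-181a-1-3p lies at −1.87 and −1.41 with LPS, and miR-181c-5p and miR-181d-5p at 1.28 and 1.51 in knockout macrophages.

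The lipoproteins were also set against each other. For oxLDL against LDL and for eLDL against LDL, in either cell type, edgeR and DESeq2 called 0 of 373 miRNAs (0%). For oxLDL, 22 and 23 miRNAs had an unadjusted p under 0.05 in macrophages and dendritic cells by edgeR, and 28 and 24 by DESeq2. For eLDL the counts were 9 and 14 by edgeR, and 13 and 20 by DESeq2. Intervals here are normal approximations and so somewhat narrower than the tests would give. They were narrowest for the abundant members: miR-181a-5p with oxLDL differed from LDL by −0.18 in macrophages (95% interval −0.44 to 0.08) and by −0.09 in dendritic cells (−0.35 to 0.17). For miR-181a-1-3p the interval was −0.52 to 0.05 in macrophages and −0.23 to 0.34 in dendritic cells. For miR-181b-1-3p it spanned −1.38 to 1.09 in macrophages, so differences of either sign within that range remain compatible with these libraries.

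In macrophages, loss of miR-155 went with more of the c/d cluster, the largest genotype differences within the family. miR-181d-5p had 684, 1253, 1077, 1015 and 737 CPM in knockout macrophages (LPS, oxLDL, eLDL, LDL, unstimulated), against 234, 456, 425, 366 and 157 CPM in wild-type macrophages. miR-181c-5p had 776, 897, 936, 837 and 478 CPM in the knockout, against 333, 368, 358, 358 and 138 CPM in wild type. Every knockout library of both miRNAs exceeded every wild-type one. The share of all miRNAs that separated in this way is not given here. The changes were 1.51 ± 0.11 for miR-181d-5p (edgeR, adjusted p = 4.29e-08), 1.28 ± 0.14 for miR-181c-5p (adjusted p = 3.46e-06) and 1.26 ± 0.26 for miR-181c-3p (adjusted p = 0.00315), which had 154 to 284 CPM against 34.9 to 132 CPM. Each held without any single library, with adjusted p of at most 0.0198, but miR-181c-3p did not pass when no filter was applied (1.25, adjusted p = 0.0821).

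miR-181a-5p was higher in knockout macrophages in 5 of 5 matched stimuli, by 1.13- to 1.41-fold in CPM (0.27 ± 0.08 on the log2 scale, adjusted p = 0.027), a call lost in 9 of 20 fits without 1 library. So 4 of 7 members were higher and none lower. The comparison called 23.9% of all 373 miRNAs, 44 of them higher and 45 lower. miR-181b-5p (−0.06 ± 0.09), miR-181a-1-3p (−0.25 ± 0.09, adjusted p = 0.0621) and miR-181b-1-3p (−0.31 ± 0.40) did not pass, although DESeq2 called miR-181a-1-3p at −0.24 (adjusted p = 0.0125). Within libraries the c/d to a/b ratio was higher in 5 of 5 knockout macrophage libraries than in their partners (mean log2 difference 1.16, exact permutation p = 0.0625, the smallest that 5 pairs allow). Of 6 stromal marker arms (miR-199a, miR-199b, miR-214, miR-143, miR-145a) 5 had reads, summing to 0.847 to 26.6 CPM in knockout and 26.1 to 281 CPM in wild-type macrophages. The miR-126a arms summed to 2.92 to 9.31 CPM in knockout and 12.0 to 16.8 CPM in wild-type macrophages, and their part in these differences was not tested. Of 24 miRNAs known from blood lineages, 3 rose and 8 fell in knockout macrophages (median −0.10, against 0.02 over all), among them miR-155-5p itself, miR-125a-5p (−2.09 ± 0.14) and miR-99b-5p (−1.73 ± 0.10). Of the lesser arms, 2 rose and 7 fell (median −0.01).

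Dendritic cells without miR-155 had more miR-181a-5p. It was 1.18- to 1.62-fold higher in CPM in 5 of 5 matched stimuli. All 5 knockout libraries lay above all 5 wild-type ones, a separation whose share over all miRNAs is not given here. The change was 0.49 ± 0.08 (edgeR, adjusted p = 0.00134), where 8.85% of all miRNAs were called. This held without each single library, with adjusted p of at most 0.0268. miR-181b-5p (0.32 ± 0.09, adjusted p = 0.0346) and miR-181c-5p (0.52 ± 0.15, adjusted p = 0.0372) also rose, but each call was lost in 12 of 20 fits without 1 library, with adjusted p up to 0.204 and 0.236. miR-181c-3p fell (−1.69 ± 0.42, adjusted p = 0.0263). It had 2, 4, 8, 5 and 34 reads in knockout dendritic cells, against 31, 20, 23, 40 and 31 reads in wild-type dendritic cells, so only the unstimulated pair was alike. Its call was lost in 10 of 20 such fits (adjusted p up to 0.111). Counted with up to 2 extra 3′ bases, it had 13, 25, 19, 12 and 44 reads in the knockout, against 41, 33, 32, 47 and 44 reads in wild type. The fall was then smaller, at −0.99 ± 0.25 (edgeR, adjusted p = 0.0254). miR-181d-5p was at 8.08 to 18.4 CPM in the knockout and 8.19 to 16.9 CPM in wild type (0.20 ± 0.13, adjusted p = 0.383). The stromal markers summed to 21.9 to 85.3 CPM in knockout and 68.5 to 282 CPM in wild-type dendritic cells, and their part was not tested.

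The genotype difference itself differed between the cell types for 4 members, where 14.5% of all miRNAs were called. Macrophages minus dendritic cells, it was 1.31 ± 0.17 for miR-181d-5p (adjusted p = 3.89e-05), 2.96 ± 0.49 for miR-181c-3p (adjusted p = 0.00117), 0.76 ± 0.20 for miR-181c-5p (adjusted p = 0.0169) and −0.49 ± 0.13 for miR-181a-1-3p (adjusted p = 0.0169). miR-181c-3p passed the filter through its 10 macrophage libraries and had 2 to 40 reads in dendritic cells, so its value is a description. Counted with 3′ tails it was 2.31 ± 0.31. The miR-181c-5p call was lost without wild-type macrophages given eLDL (0.66, adjusted p = 0.0853) or wild-type dendritic cells given LDL (0.67, adjusted p = 0.0516), and that of miR-181a-1-3p in 7 of 20 fits, with adjusted p up to 0.0957. Across both cell types the miR-181a-1-3p to miR-181a-5p ratio was lower in the knockout in 10 of 10 pairs (mean log2 difference −0.38, exact permutation p = 0.00195, the smallest possible, adjusted p = 0.00781), and the miR-181b-5p to miR-181a-5p ratio in 9 of 10 (−0.25, exact permutation, adjusted p = 0.00977). Whether the LPS effect differed between genotypes was tested with 4 residual degrees of freedom: edgeR called 0 of 373 miRNAs (0%), with 21 at an unadjusted p under 0.05, and DESeq2 called 0, with 18. For miR-181a-1-3p that difference was 0.34, with a normal-approximation 95% interval of −0.03 to 0.72. With so few degrees of freedom this interval is narrower than the test would give.

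Over the 20 libraries, after the mean of each culture was subtracted, the log2 levels of miR-181a-1-3p and its guide miR-181a-5p had a Pearson r of 0.02. miR-181a-1-3p ran closer to miR-181b-5p (r = 0.88) and miR-181b-1-3p (r = 0.70), and miR-181a-5p to miR-181c-5p (r = 0.79). These values describe libraries that share their depth and scaling. The 3 miRNAs outside the family most like miR-181a-1-3p were miR-10a-5p, miR-152-5p and miR-27a-5p (r = 0.92 each), those most like miR-181a-5p were miR-29b-3p (0.93), miR-142a-5p (0.86) and miR-148b-3p (0.83), and those most like miR-181c-5p were miR-142a-5p (0.84), the 5′ arm of Mir151 (0.80) and miR-132-3p (0.80).

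The same lists serve as a frame for the other comparisons. Between macrophages and dendritic cells, 10 of the 38 lesser arms were higher and 24 lower (median log2 difference −0.77, against −0.02 over all miRNAs), and 9 of the 24 lineage miRNAs were higher and 11 lower (−0.28), where 78.8% of all miRNAs were called. miR-146b-5p, induced by inflammatory signals, was higher in macrophages by 4.46 ± 0.07, and miR-125b-5p lower by 7.83 (−7.83 ± 0.12). With LPS, 3 lineage miRNAs rose and 4 fell in macrophages (median −0.10, against 0.08), with miR-146a-5p at 1.08 ± 0.19 and miR-223-3p at −1.09 ± 0.13, and 5 rose and 4 fell in dendritic cells (0.01, against −0.05), where 20.1% and 23.6% of all miRNAs were called. With lipoproteins, 1 lesser arm rose and 7 fell in macrophages (−0.21, against 0.02), and 3 lineage miRNAs rose and 8 fell (−0.10), where 13.1% of all miRNAs were called. In dendritic cells given lipoproteins no lesser arm was called (median 0.08, against −0.04) and 1 lineage miRNA, miR-99b-5p, rose (list median −0.04), where 0.268% of all miRNAs were called. In knockout dendritic cells 2 lesser arms rose and 1 fell (0.07, against 0.04), and 1 lineage miRNA rose and 1, miR-155-5p, fell (0.06), where 8.85% of all miRNAs were called.

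Because c and d guides differ from a and b guides by so little, their reads were set against the errors such a base could give. In macrophages the most frequent miR-181b-5p tag had 252570 reads. The same tag with the miR-181d base (C12U) had 18337 reads, or 7.26% of that number, where any other base at that position had at most 131 reads and the same change at 3 other positions at most 122 (0.0483%). In dendritic cells the tag with C12U had 336 reads, or 0.912% of 36823, against at most 128 (0.348%) for the same change elsewhere. In unstimulated and LDL-treated wild-type dendritic cells it had 18 reads each, where the same change elsewhere reached 12 and 18, so part of the low miR-181d-5p level there cannot be told from miscalled miR-181b-5p. In LPS-treated dendritic cells it had 50 reads in the knockout and 74 in wild type, against at most 19 and 13 for the same change elsewhere. The 1-base deletion that turns the main miR-181a-5p tag into miR-181c-5p had 8889 reads in macrophages, against at most 94 for any of 13 other inner deletions, and 1609 reads against at most 29 in dendritic cells.

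The c/d guides also differed in length between the cell types, while the ranges of miR-181a-5p and miR-181b-5p overlapped. Tags of 22 nt or shorter were 22.3 to 35.5% of miR-181c-5p reads in macrophages, against 48.4 to 68.1% in dendritic cells, and 10.0 to 25.8% of miR-181d-5p reads, against 28.0 to 67.0%, without overlap in either case. For miR-181b-5p the ranges were 30.6 to 52.4% in macrophages and 44.7 to 54.3% in dendritic cells, and for miR-181a-5p 22 to 31.9% and 23.2 to 34.1%. The dendritic cell values of miR-181c-5p rest on 191 to 556 reads a library and those of miR-181d-5p on 54 to 187. The miR-181d-5p reads there may include miscalled miR-181b-5p, as given above. Their median share of such short tags was 46.5%, against 49.5% for miR-181b-5p, and the part of miscalls was not tested.

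**Figure D4:**
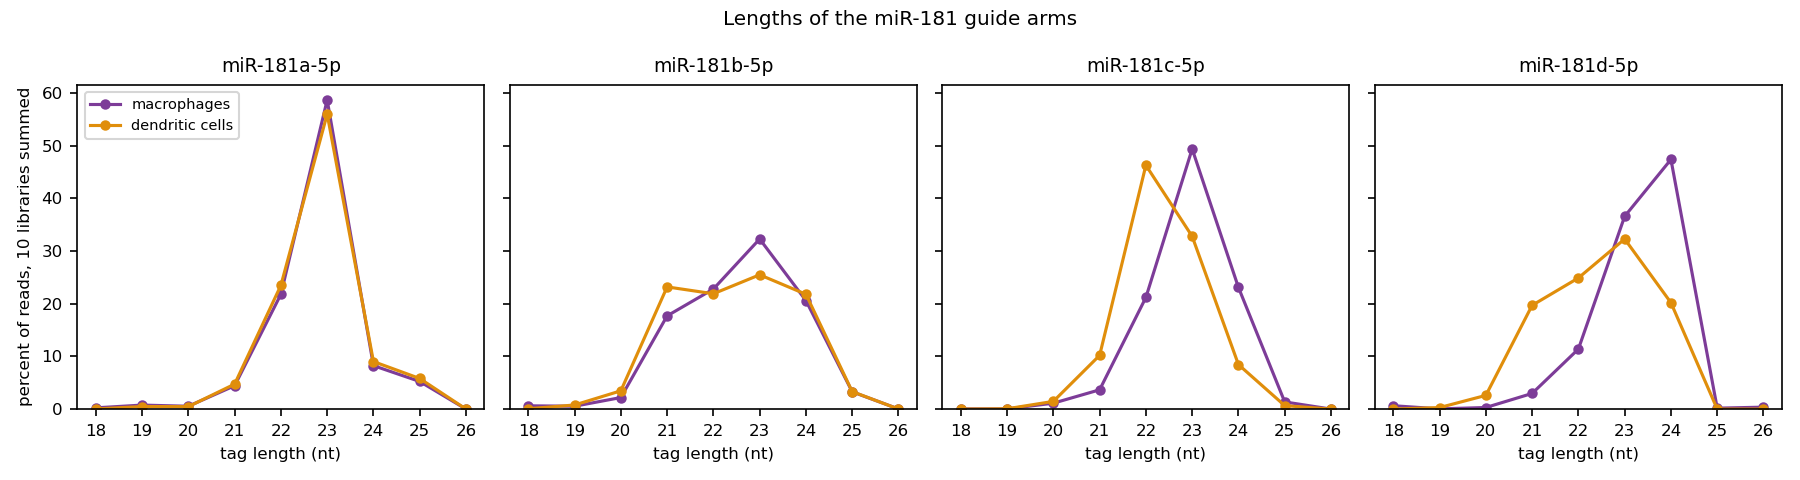
Percent of reads (y axis) of each miR-181 guide by tag length in nt (x axis), with the 10 macrophage libraries summed in purple and the 10 dendritic cell libraries summed in orange. The miR-181c-5p peak is at 23 nt in macrophages and 22 nt in dendritic cells, that of miR-181d-5p at 24 and 23 nt, and that of miR-181a-5p at 23 nt in both.

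Added 3′ uridine that does not match the hairpin was frequent on passengers and rare on most guides. The hairpins themselves continue with u after miR-181a-5p, but with c after miR-181a-1-3p and miR-181b-1-3p. A U added to the main miR-181a-5p tag therefore counted as an exact match. Guide and passenger values thus cannot be compared as rates of added uridine. Uridine counted in this way was on 0.663 to 1.41% of miR-181a-5p reads in macrophages and 0.983 to 1.88% in dendritic cells. On miR-181a-1-3p it was on 10.5 to 17.8% of reads in macrophages and 17.3 to 30.7% in dendritic cells. miR-181c-3p had 21.2 to 29.5% in macrophages and 14.9 to 84.6% in dendritic cells, the latter on few reads. miR-181b-1-3p had 59.4 to 72.2% in macrophages and 30.6 to 78.3% in dendritic cells. An exact-match count therefore leaves out more of the passenger reads than of the guide reads. The share of miR-181a-1-3p reads with such a tail was also higher with LPS than unstimulated in all 4 cultures, at 17.8 against 10.5% in knockout and 15.1 against 10.9% in wild-type macrophages, and at 30.7 against 17.6% in knockout and 27.2 against 17.3% in wild-type dendritic cells. Counted with tails, miR-181a-1-3p still fell with LPS, by 1.82 in macrophages (−1.82 ± 0.13, edgeR, adjusted p = 1.38e-06) and by 1.17 in dendritic cells (−1.17 ± 0.13, adjusted p = 6.57e-05), the second less than the −1.41 of exact matches. Its log2 ratio to miR-181a-5p was then lower with LPS by −1.08 on average, against −1.26 for exact matches (exact permutation, adjusted p = 0.00781 for both).

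**Figure D5:**
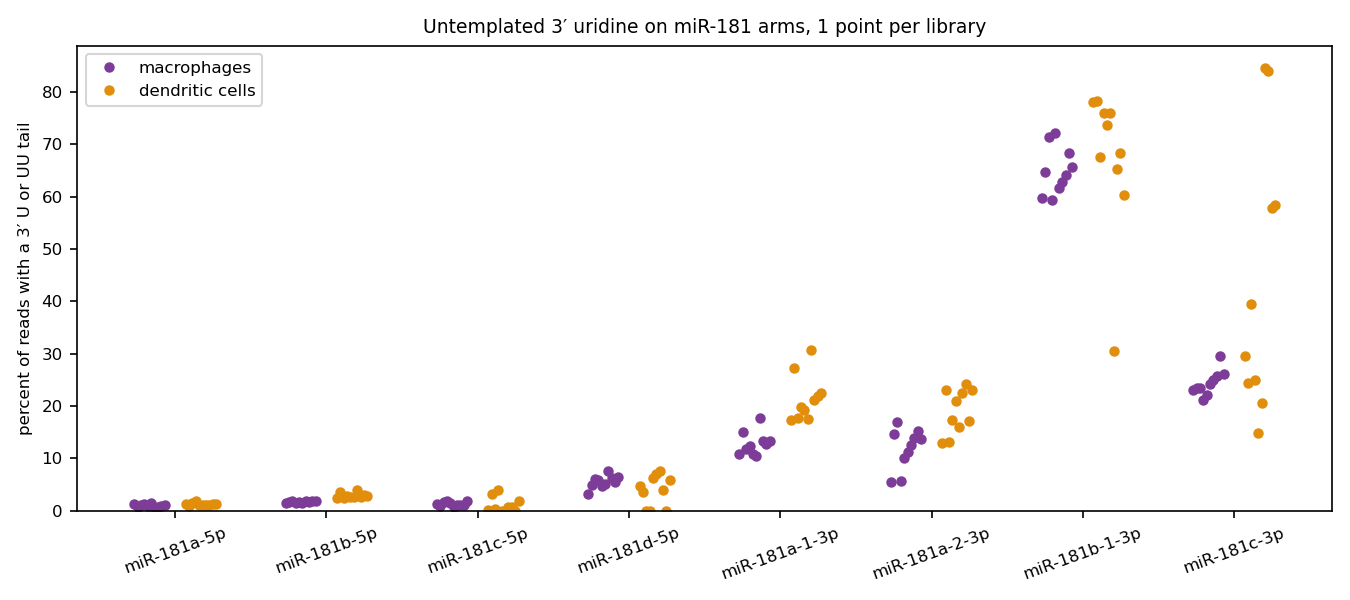
Percent of reads with a 3′ U or UU that does not match the hairpin (y axis) for each miR-181 arm (x axis), 1 point per library, macrophages in purple and dendritic cells in orange. miR-181b-1-3p lies between 30.6 and 78.3%, and miR-181a-5p between 0.663 and 1.88%. A U that the hairpin also holds next to the arm, as after miR-181a-5p, is not counted as added.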

How the data were processed

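The deposited files hold raw read counts of distinct small-RNA sequences, 1 file per library, and the submitters' processing notes name CASAVA 1.8.2. How adapters were removed, and whether reads were aligned, is not given in the sources used here. Tags of 18 to 26 nt were matched exactly to 1185 mouse hairpins (GRCm38), with arms from RefSeq mature sequences, starting within 2 nt of the main 5′ end. Tags that match several miRNAs were divided equally and the sums rounded. Depth was 10.3 to 22.8 M reads.

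Of 1222 miRNAs, 373 with 5 CPM in 2 libraries were tested with edgeR 4.0.16 (R 4.3.3, TMM scaling, quasi-likelihood test, Benjamini-Hochberg adjusted p of 0.05) in 1 fit of all 20 libraries with cell type, genotype within cell type and stimulus within cell type. With 1 library per condition, the 8 residual degrees of freedom come from differences between genotypes in their response to stimuli. Ratios between arms used CPM + 1 and two-sided exact permutation tests over matched libraries (numpy 2.4.6, pandas 2.3.3, scipy 1.17.1), with 20 tests adjusted together. Alternatives were DESeq2 1.42.0, other scalings, no filter, exact 5′ starts, undivided tags, 3′ tails, separate cell types, another pseudocount and leaving out each library. Figures used matplotlib 3.10.9.

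The edgeR script was tested on simulated data. With 200 of 373 miRNAs changed it made more false calls than nominal under TMM, and not with the true scaling. Smaller changed sets and the true scaling were added after this was seen. Between macrophages and dendritic cells 294 of 373 miRNAs were called, beyond the 200 simulated, so that comparison may hold more false calls than nominal. The named miRNAs were the 7 members, the other arms of their hairpins, the 3 most alike of each of 3 members, and the members of 2 lists with the largest called changes. Members and lists were chosen with earlier results of these data known. Some details of the matching (arm boundaries, merging, rounding) were settled with the counts in view, and the error background of miR-181c-5p and miR-181d-5p and 1 alternative were added after the data had been seen.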

Additional observations from a re-analysis of the deposited data

Results flagged for a closer look

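For 8 pairs of effects the difference between macrophages and dendritic cells itself passed the edgeR test (adjusted p of 0.05), and each is a difference of log2 changes, macrophages minus dendritic cells. The LPS effect differed for miR-181d-5p (−1.33, adjusted p = 0.00394). The lipoprotein effect differed for miR-181a-1-3p (−0.75, adjusted p = 0.0164), miR-181b-1-3p (−2.87, adjusted p = 0.0263, an arm that reached 5 CPM in 3 libraries) and miR-181c-5p (1.43, adjusted p = 0.00365). The knockout effect differed for miR-181a-1-3p (−0.49, adjusted p = 0.0169), miR-181c-5p (0.76, adjusted p = 0.0169), miR-181c-3p (2.96, adjusted p = 0.00117) and miR-181d-5p (1.31, adjusted p = 3.89e-05). The knockout differences of miR-181c-3p and miR-181d-5p passed without each of the 20 libraries, and each of the other 6 was lost without at least 1. That of miR-181c-3p is a description, since this arm passed the filter through its 10 macrophage libraries.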

How the results depend on the processing

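None of the 37 called member changes and 10 called ratios turned its sign under any alternative run. Of 82 member changes that were not called, 40 turned sign under at least 1 alternative, 27 of them with all libraries kept, and so did 3 of 10 ratios not called; none of these passed the threshold with the turned sign. Of 17 comparisons, the number of members called (all 7 included) moved by over 1.5 times as follows. DESeq2 called 4 with LPS against none in dendritic cells (edgeR 2), 1 with lipoproteins in dendritic cells (0), 4 for LPS against lipoproteins in dendritic cells (2) and 4 for the cell type difference of the LPS effect (1). DESeq2's size factors in edgeR gave 4 and 3 in the last pair. Without a filter it was 1 with lipoproteins in dendritic cells, 2 for knockout dendritic cells (4) and 2 for the LPS difference. Knockout dendritic cells had 2 under upper-quartile scaling, total miRNA reads, exact 5′ starts and 3′ tails, and 1 when fitted alone. The LPS difference was 2 under total reads and exact starts and 4 with tails. LPS against lipoproteins was 1 in dendritic cells fitted alone and 4 in macrophages with tails (2). Tails without unstimulated wild-type macrophages gave, for LPS 2 in macrophages (4), for lipoproteins 3 in macrophages (5) and 1 in dendritic cells, for LPS against lipoproteins 4 in macrophages and 5 in dendritic cells, for knockout dendritic cells 2, and for the lipoprotein difference 0 (3). Exact starts brought past the threshold the ratio of miR-181c-3p to miR-181c-5p by knockout (−0.81) and of miR-181b-5p to miR-181a-5p by LPS (−0.29), and tails that of miR-181b-1-3p to miR-181b-5p by LPS (−1.05). The cause was not tested.

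Leaving out each library gave, for LPS, 1 to 4 members in macrophages and 2 to 3 in dendritic cells, for lipoproteins 1 to 6 and 0 to 1, for LPS against lipoproteins 1 to 3 and 1 to 3, for knockout 3 to 5 and 1 to 5, and 6 to 6 between cell types. The differences of effects gave 0 to 3 (LPS), 1 to 4 (lipoproteins) and 3 to 5 (knockout), and the 5 comparisons with 0 calls stayed at 0. The ratio of miR-181c-3p to miR-181c-5p was −0.98 to −0.68 by knockout and −0.82 to −0.52 by LPS, and that of miR-181b-5p to miR-181a-5p by LPS −0.31 to −0.25. Total miRNA reads moved the median of all miRNAs with LPS in dendritic cells by −0.42, and upper-quartile scaling that of knockout macrophages by 0.28. Depth limits miR-181b-1-3p, at 9 to 138 reads a library, and miR-181c-3p in dendritic cells, at 2 to 40. The labels give no replicate numbers shared between conditions, so libraries could not be paired by mouse. The ratio tests instead matched libraries by cell type, genotype and stimulus.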
